A study of Mus musculus with 10 samples.

Results

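Mesothelin and the membrane mucins were examined as a set of 7 genes among the 22740 protein-coding genes counted in the oesophagus of carcinogen-exposed mice. The set holds Msln, Muc16, Muc1, Muc4, Muc13, Muc15 and Muc20, taken as the rows that carry these gene names. Msln entered because it was higher in Grhl3 KO in these same libraries, and the mucins entered by family, with Muc16 as the known partner of mesothelin. The value that chose Msln is therefore given as a description, and nothing is supported with it.

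The libraries came from 5 mice labelled Grhl3 knockout (Grhl3 KO) and 5 labelled wild type. All 10 mice are labelled C57BL/6, and all were given 4-NQO, a DNA-damaging chemical used to induce squamous cancers in rodents. Tissue of the Grhl3 KO mice is labelled as tumour and that of the wild-type mice is not, while the design text speaks of tumours in both, so that genotype and tissue label cannot be told apart. The series title writes the knockout as cKO, and the column names of these mice contain the word Cre. The labels name no promoter for Cre, and no age or sex. Libraries are named here by group and by the sample number of their titles.

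Mesothelin is a glycoprotein held on the outer cell surface by a glycolipid anchor. It is made as a precursor that a furin-type protease cuts into a soluble part and the anchored part, and the anchored part binds MUC16, the antigen known as CA125. Mesothelin is best known from the mesothelium that lines the body cavities and from carcinomas that raise it. Membrane mucins are long proteins that cross the membrane, carry dense sugar chains on serines and threonines, and form part of the protective coat on the luminal face of epithelia; several can be shed by proteases.

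Total counts ran from 15315418 to 32884323 per library. Squamous keratins, which define this epithelium, were abundant: Krt13, a suprabasal keratin of the oesophagus, stood at 4955 to 43028 CPM (counts per 1e+06 counts of the scaled library size), and Krt5, a basal keratin, at 7414 to 13376 CPM. Grhl3 itself ranged over 135 to 316 CPM in Grhl3 KO against 109 to 363 CPM in wild type, so the summed counts of the gene do not set the groups apart. The Y-linked gene Eif2s3y was at 0 and 0.0539 CPM in wild-type libraries 1528 and 1555, at 24.9 CPM in wild-type library 1561 and between 68.4 and 75.5 CPM in all others, so the wild-type group mixes libraries with and without Y-linked counts. The part of this mixture in any result below was not tested; values without libraries 1528 and 1555 are given where they bear on a member.

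Of the 7 members, 4 held enough counts to be tested (Msln, Muc1, Muc4 and Muc15), and 3 (Muc16, Muc13 and Muc20) fell below the filter on low counts. The lowest Grhl3 KO library lay above the highest wild-type library for Msln. Muc15 had a lower mean in Grhl3 KO, but its groups overlapped and it missed the threshold. Muc1 and Muc4 differed by less than the spread between libraries. An adjusted p under 0.05 in edgeR's quasi-likelihood test was reached by 1 of the 4 members, Msln, against 0.0801% of the 13731 genes tested, 0.0291% in the higher and 0.051% in the lower direction. Groups that did not overlap were likewise seen for Msln alone among the 4, against 1.35% of all genes tested and 0.787% in the higher direction. Since Msln was picked from this contrast, nothing is read from either count.

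**Figure D1:**
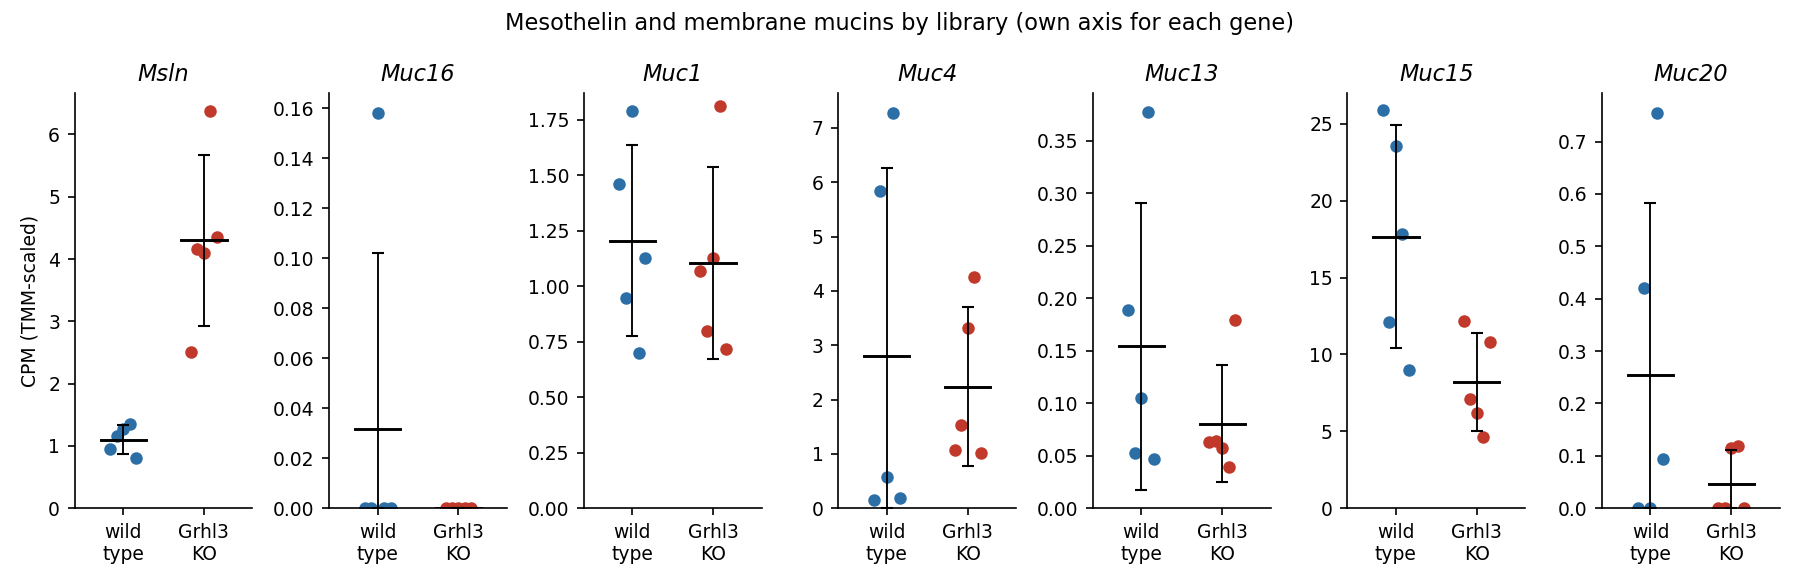
CPM of each member in each library (points), with the group mean (wide bar) and SD (whisker, stopped at 0), n = 5 per group and a separate axis for each gene. Msln lies between 2.51 and 6.38 CPM in Grhl3 KO and between 0.800 and 1.35 CPM in wild type, while the groups of the other 6 genes overlap.

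Msln (ENSMUSG00000063011; GRCm38 chromosome 17, 25748613 to 25754378, minus strand) was at 2.51, 4.16, 4.10, 6.38 and 4.36 CPM in Grhl3 KO libraries 1026, 1027, 1035, 1036 and 1043. In wild-type libraries 1028, 1048, 1528, 1555 and 1561 it was at 0.942, 1.16, 1.26, 1.35 and 0.800 CPM. The wild-type libraries lie close together, and Grhl3 KO library 1026 is the lowest and 1036 the highest of their group. The group means were 4.30 ± 1.38 and 1.10 ± 0.227 CPM (SD, n = 5 each), and the log2 fold change was 1.97 (SE 0.28, 95% limits 1.35 to 2.58). The value that brought the gene into the set was its edgeR adjusted p of 0.0358.

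These levels rest on few reads. The wild-type libraries held 17 to 25 Msln counts each and the Grhl3 KO libraries 40 to 162. The exact Poisson 95% interval of the lowest Grhl3 KO library, 1026, ran from 1.80 to 3.42 CPM, and that of the highest wild-type library, 1555, from 0.871 to 1.99 CPM, so these 2 intervals overlap. The intervals of the other 4 Grhl3 KO libraries began at 3.41 CPM or above, beyond the upper end of every wild-type interval. Such intervals cover counting error only. Leaving out library 1026 kept the edgeR call (log2 fold change 2.10, adjusted p = 0.0300), and leaving out any of the other 9 libraries ended it, with log2 fold changes of 1.77 (Grhl3 KO library 1036 left out) to 2.04 (wild-type library 1555 left out) and adjusted p from 0.0585 to 0.127. Without wild-type libraries 1528 and 1555 the log2 fold change was 2.15 (edgeR adjusted p = 0.208), and among the libraries numbered 1026 to 1048, which hold 5 Grhl3 KO and 2 wild-type mice, it was 2.04 (edgeR adjusted p = 0.475).

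**Figure D2:**
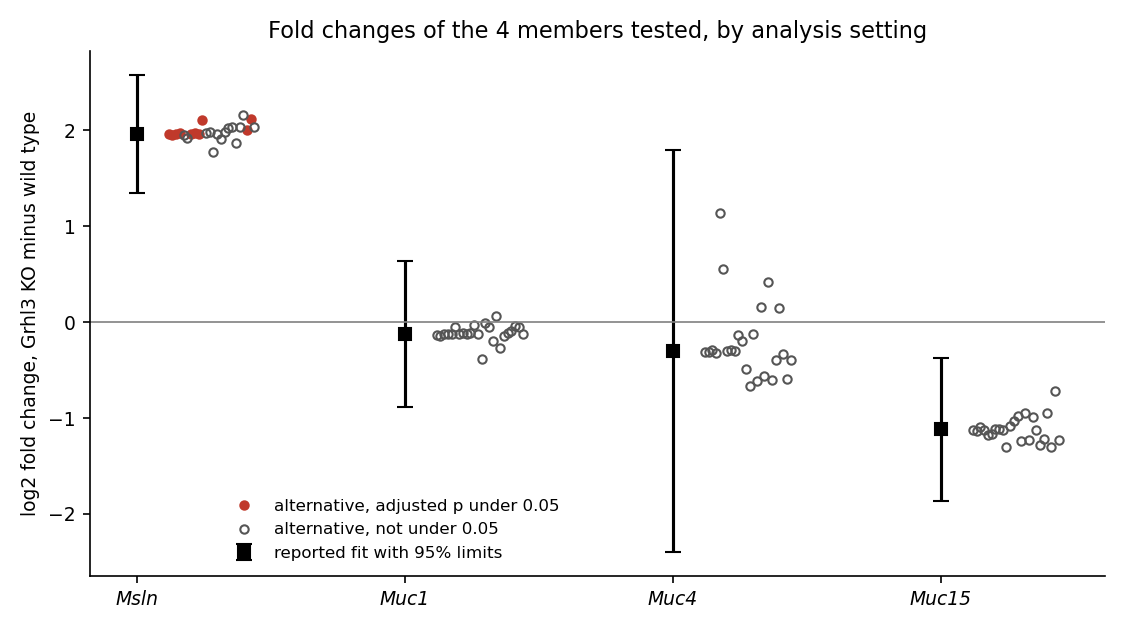
Log2 fold change (Grhl3 KO minus wild type) of the 4 members tested, with the reported fit and its 95% limits (square) and 24 other analysis settings per gene (circles, filled where the adjusted p was under 0.05). Msln, which was chosen from this contrast, stays between 1.77 and 2.15 in all 24 settings but keeps its call in 10. The Muc4 values fall on either side of 0.

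In a bulk library a change in how many cells express a gene and a change in RNA per cell cannot be told apart. Mesothelial cells cover the outside of many organs, and a list of 14 of their genes was measured in the same libraries; the part of such cells in the Msln values was not tested. The listed genes are given here as 4 mesothelial markers (Upk3b, Lrrn4, Wt1 and Upk1b), which were at or near 0, and the others. Several of the others were at or above the level of Msln. Calb2 and Pkhd1l1 were low too, with means of 0.184 and 0.322 CPM in Grhl3 KO and 0.112 and 0.326 CPM in wild type. The 4 markers, Calb2 and Pkhd1l1 were named after their values were seen. Upk3b, a uroplakin of mesothelium, was at 0 in 7 of 10 libraries and at 0.0597, 0.211 and 0.669 CPM in the other 3. Lrrn4 reached at most 0.157 CPM and the uroplakin gene Upk1b at most 0.118 CPM, both in the same Grhl3 KO library 1036. The transcription factor gene Wt1 reached at most 0.158 CPM, in wild-type library 1048. Among the others, the keratin genes Krt7, Krt19 and Krt18 ran from 0.141 to 39.4, 0.188 to 22.9 and 1.23 to 14.8 CPM over the 10 libraries, and Aldh1a2, a retinoic acid synthesis gene, from 0.539 to 2.97 CPM; Krt18 and Aldh1a2 were named after their values were seen. Of the 14 genes on the mesothelial list 8 were tested, 2 higher and 6 lower in Grhl3 KO, none past the threshold (edgeR adjusted p of at least 0.778), with a median log2 fold change of −0.30 against −0.00106 for all genes tested. Their summed level was 51.8 to 134 CPM in Grhl3 KO and 62.6 to 187 CPM in wild type, most of it from Bnc1, a transcription factor gene that squamous epithelium also expresses (41.5 to 99.3 CPM in Grhl3 KO, 53.5 to 119 CPM in wild type). Krt19, the gene of smallest p on the list, had a log2 fold change of −1.93 and Krt7 one of 0.23, Gpm6a and Ildr2 had −0.61 and −0.42, and Aldh1a2 had 0.28 (edgeR adjusted p = 0.778, 0.984, 0.867, 0.803 and 0.947).

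**Figure D3:**
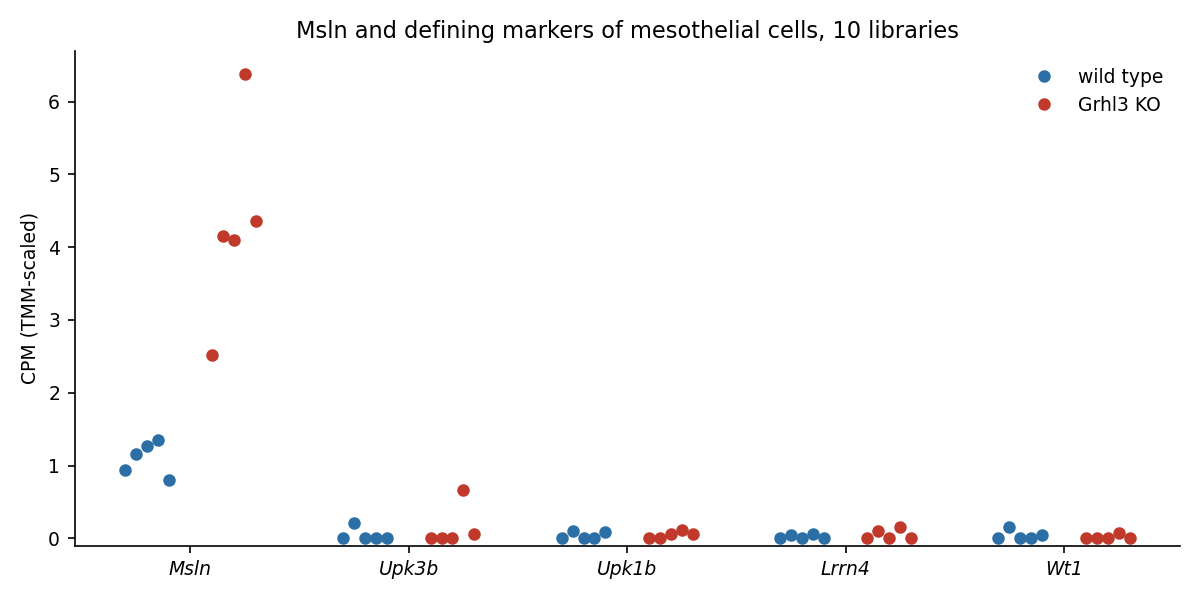
CPM of Msln and of 4 mesothelial markers in the 5 wild-type and 5 Grhl3 KO libraries (points). The 4 markers were named from a list of 14 genes after their values were seen. Other listed genes, not plotted, reached more, such as Krt7 (39.4 CPM in Grhl3 KO) and Bnc1 (119 CPM in wild type). No library exceeds 0.669 CPM for any of the 4 markers, while Msln runs from 0.800 to 6.38 CPM. Both maxima, 0.669 CPM of Upk3b and 6.38 CPM of Msln, are in Grhl3 KO library 1036.

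Columnar secretory and airway epithelia also carry membrane mucins, and the part of such cells in the members' values was not tested. The columnar list summed to 3.19 to 6.92 CPM in Grhl3 KO and 2.58 to 10.4 CPM in wild type, with 6 of its 19 genes at 0 in every library, among them the gastric gene Cldn18. Spdef, a transcription factor gene of secretory cells, and Agr2, a mucin-folding enzyme gene, were the 2 members tested, with highest values of 8.46 and 1.95 CPM (log2 fold changes −0.89 and 0.05, edgeR adjusted p = 0.817 and 0.992). The club cell gene Scgb1a1 of the airway reached at most 0.239 CPM. The airway list summed to 166 to 317 CPM in Grhl3 KO and 87.1 to 184 CPM in wild type, nearly all of it Tppp3, a gene found in ciliated cells and elsewhere (255 ± 56.3 against 150 ± 41.1 CPM, SD, n = 5 each; log2 fold change 0.76, edgeR adjusted p = 0.428). For Cyp2f2, the other airway gene tested, at 0.0787 to 11.5 CPM, the log2 fold change was −0.16 (edgeR adjusted p = 0.989). None of the 5 thyroid genes was tested. Slc5a5, the iodide transporter gene, averaged 0.974 ± 0.548 against 0.189 ± 0.115 CPM (Grhl3 KO against wild type, SD, n = 5 each). Thyroglobulin (Tg) averaged 0.397 ± 0.310 against 1.14 ± 1.64 CPM in the same order, with wild-type libraries ranging from 0.105 to 4.05 CPM.

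Genes beside Msln showed small differences. The 6 nearest genes tested, from Rpusd1 at 17.15 kb to Metrn at 38.84 kb, had log2 fold changes from −0.15 to 0.16, none past the threshold. Mslnl, the mesothelin-like gene next to Msln, was below the filter with means of 0.355 ± 0.179 and 0.269 ± 0.126 CPM (Grhl3 KO, then wild type; SD, n = 5 each). Strc, which encodes stereocilin of the inner ear and is related to mesothelin, differed by a log2 value of 0.30 (edgeR adjusted p = 0.967).

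Within the groups, Msln varied most like Agpat9 (r = 0.96), which encodes an acyltransferase of triglyceride synthesis, and Lpin2 (r = 0.95), a phosphatidate phosphatase gene. Next came the leukocyte receptor gene Cd300a (r = 0.93), the endoplasmic reticulum oxidase gene Ero1l (r = 0.92) and Ghdc (r = 0.92). These are the 5 highest Pearson correlations with Msln among 12583 genes, in log2 CPM with the group means removed over 10 libraries, so they are maxima over many genes and a description only. Agpat9 was lowest in Grhl3 KO library 1026 (8.42 CPM) and highest in 1036 (20.2 CPM), as Msln was within that group. Their own log2 fold changes between the groups ran from −0.00 for Ero1l to 0.59 for Lpin2, with edgeR adjusted p from 0.519 to 0.999.

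Muc16, the partner of mesothelin, could not be read from this table. Its row (ENSMUSG00000032134) held 3 counts in all, every one in wild-type library 1528 (0.158 CPM), and 0 in the other 9 libraries. A count of 0 over the 5 Grhl3 KO libraries allows up to 0.0242 CPM. However, the identifier of that row is not in the GENCODE M21 annotation of GRCm38, where Muc16 is ENSMUSG00000109564 (chromosome 9, 18495455 to 18674530, minus strand, 26350 exon bases), and that identifier is not in the table. The low counts therefore belong to another gene model of unknown extent and show nothing about the full gene.

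Muc15 (ENSMUSG00000050808; chromosome 2, 110721340 to 110739527, plus strand) encodes a heavily glycosylated membrane mucin and had the most counts of the set. It stood at 12.2, 7.10, 6.21, 4.65 and 10.8 CPM in Grhl3 KO libraries 1026, 1027, 1035, 1036 and 1043. In wild-type libraries 1028, 1048, 1528, 1555 and 1561 it stood at 25.9, 12.1, 23.5, 17.8 and 8.98 CPM. The groups overlap because wild-type libraries 1561 and 1048 lie within the Grhl3 KO range, while wild-type libraries 1028, 1528 and 1555 lie above it. The means were 8.19 ± 3.18 and 17.7 ± 7.23 CPM (SD, n = 5 each), a log2 fold change of −1.12 (SE 0.34, 95% limits −1.86 to −0.37), which did not pass (edgeR adjusted p = 0.441 over the whole table). Its unadjusted edgeR p was 0.00708, which ranked 220 among the 13731 genes tested. At the looser cut of 0.05, 7.16% of all genes tested had an unadjusted p below it. Without wild-type libraries 1528 and 1555 the Muc15 log2 fold change was −0.94 (edgeR adjusted p = 0.895). Muc15 shares 61 exon bases with Ano3 on the opposite strand, a gene at no more than 0.685 CPM in any library.

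Muc15 was set beside genes of the suprabasal squamous layers, the upper cells of this epithelium. Of 17 suprabasal genes tested 14 were lower and 3 higher, with a median log2 fold change of −0.35 against −0.00106 for all genes and none past the threshold. An unadjusted edgeR p under 0.05 was reached by 6 of the 17, all lower, against 7.16% of all genes tested. Suprabasin (Sbsn) had −1.06, the cornified envelope precursor Sprr1b −1.09 and involucrin (Ivl) −1.90 (edgeR adjusted p = 0.426, 0.478 and 0.504). Krt13, highest in wild-type library 1028 at 43028 CPM and lowest in 1561 at 4955 CPM, had the same extreme libraries in wild type as Muc15. In Grhl3 KO the extreme libraries differed. There Krt13 was highest in 1043 (20759 CPM) and lowest in 1035 (8361 CPM), while Muc15 was highest in 1026 (12.2 CPM) and lowest in 1036 (4.65 CPM). Krt6b had a log2 fold change of 0.09. With the mean level of the list as a covariate the Muc15 log2 fold change was −0.72 (SE 0.37, edgeR adjusted p = 0.577). Without the covariate it was −1.12 (SE 0.34). The part of suprabasal content in the Muc15 values was not tested. The list summed to 51294 to 84259 CPM in Grhl3 KO and 37156 to 135743 CPM in wild type. Within the groups the genes most like Muc15 were Rilp (r = 0.96), Mast3 (0.95), Dlg2 (0.93), Flad1 (0.93) and Lipm (0.92), a lipase gene of cornifying epidermis; these were named after their values were seen. Between the groups Dlg2 and Lipm had log2 fold changes of −2.11 and −1.42 (edgeR adjusted p = 0.216 and 0.421).

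Basal squamous genes were described in the same way, with 10 of 11 lower and 1 higher, a median of −0.27 and none past the threshold. An unadjusted edgeR p under 0.05 was reached by 2 of the 11, both lower, against 7.16% of all genes tested. Krt14 had a log2 fold change of 0.05, Krt5 −0.23, Sox2 −0.27, the neurotrophin receptor gene Ngfr −0.64 and podoplanin (Pdpn) −1.44 (edgeR adjusted p from 0.455 to 0.976).

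Muc1 (ENSMUSG00000042784; chromosome 3, 89229057 to 89233381, plus strand), which encodes the best known epithelial membrane mucin, was low in both groups. It was at 1.07, 0.800, 1.13, 1.81 and 0.716 CPM in Grhl3 KO libraries 1026, 1027, 1035, 1036 and 1043. In wild-type libraries 1028, 1048, 1528, 1555 and 1561 it was at 1.46, 0.947, 1.79, 0.700 and 1.13 CPM. The ranges are nearly the same, with means of 1.10 ± 0.432 and 1.21 ± 0.429 CPM (SD, n = 5 each). The log2 fold change was −0.12 (95% limits −0.88 to 0.64, edgeR adjusted p = 0.976), and the limits leave room for a change in either direction.

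Muc1 is shown here by its promoter window because it is the 1 member among those with a window that held a grainyhead-type motif. GRHL factors are known to bind AACCGGTT and close variants. The RefSeq table of GRCm38.p6 gave 6 windows of 300 bases (250 before to 50 after the annotated start) for 5 of the 7 members, Muc16, Muc1, Muc4, Muc13 and Muc20. AACCGGTT, which reads the same on both strands, was in 0 of the 6 windows and in 0.146% of all 32851 windows. AACNGGTT, which includes it, was searched on both strands and was in 1 of the 6 and in 2.09% of all. The match begins at −180 from the Muc1 start and is in capitals. A match describes letters only and is not a binding site. The AP-1 type motif TGANTCA was in both Muc13 windows and in 7.81% of all windows. The window of Muc1, at chr3:89228806-89229105 on the plus strand, reads 5′ to 3′:
Muc1: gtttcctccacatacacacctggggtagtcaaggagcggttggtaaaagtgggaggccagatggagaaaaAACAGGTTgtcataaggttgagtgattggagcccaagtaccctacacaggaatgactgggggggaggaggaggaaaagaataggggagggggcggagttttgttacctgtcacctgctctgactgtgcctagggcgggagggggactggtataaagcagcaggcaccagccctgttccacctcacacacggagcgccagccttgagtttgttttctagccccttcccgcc

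Muc4 and Muc20 lie tail to tail on chromosome 16 and were highest in the same libraries. Muc4 (ENSMUSG00000079620; 32735886 to 32782391, plus strand) encodes a large membrane mucin that pairs with the receptor ERBB2, and Muc20 (ENSMUSG00000035638; 32777419 to 32797435, minus strand) a mucin that binds the receptor MET. Muc13 (ENSMUSG00000022824; 33794037 to 33819934, plus strand), a mucin of gut epithelium, lies 1011.6 kb beyond Muc4. Their promoter windows are shown because the 2 genes start at opposite ends of the shared locus; neither holds any of the 3 motifs, so both are in lower case throughout. The Muc4 window is chr16:32735636-32735935 on the plus strand and the Muc20 window chr16:32797386-32797685 on the minus strand, each read 5′ to 3′ and with a GC content of 43.7% and 59.3%:
Muc4: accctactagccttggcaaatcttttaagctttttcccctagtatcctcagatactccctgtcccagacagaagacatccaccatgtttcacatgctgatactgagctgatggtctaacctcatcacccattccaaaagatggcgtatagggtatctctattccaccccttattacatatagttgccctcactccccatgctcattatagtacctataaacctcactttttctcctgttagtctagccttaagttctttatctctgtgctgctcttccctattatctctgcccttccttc
Muc20: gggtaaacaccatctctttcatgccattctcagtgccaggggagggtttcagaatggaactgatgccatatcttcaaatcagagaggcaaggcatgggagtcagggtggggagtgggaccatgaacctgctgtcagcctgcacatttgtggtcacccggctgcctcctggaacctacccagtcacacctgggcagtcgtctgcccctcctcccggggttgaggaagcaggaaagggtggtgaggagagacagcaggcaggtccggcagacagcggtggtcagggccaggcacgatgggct

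Muc4 was at 1.07, 1.54, 3.32, 4.25 and 1.01 CPM in Grhl3 KO libraries 1026, 1027, 1035, 1036 and 1043. In wild-type libraries 1028, 1048, 1528, 1555 and 1561 it was at 0.141, 5.84, 0.579, 7.27 and 0.188 CPM. Wild-type libraries 1048 and 1555 thus hold the 2 highest values and the other 3 wild-type libraries the 3 lowest, a 51.4-fold range within the group against 4.19-fold in Grhl3 KO. The means were 2.24 ± 1.47 and 2.80 ± 3.47 CPM (SD, n = 5 each). The log2 fold change of −0.30 (SE 0.95, 95% limits −2.39 to 1.79, edgeR adjusted p = 0.978) is smaller than the spread, and it was 1.14 in limma voom and 0.42 in edgeR without wild-type library 1555.

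Muc20 held 31 counts in all. It was at 0 in Grhl3 KO libraries 1026, 1027 and 1043 and at 0.116 and 0.118 CPM in 1035 and 1036. In wild type it was at 0 in 1028 and 1528, 0.421 CPM in 1048, 0.754 CPM in 1555 and 0.0941 CPM in 1561. The 4 libraries highest in Muc4 were also the 4 highest in Muc20. The genes overlap by 627 exon bases on opposite strands, so reads from the overlap are told apart only by strand; the table is named as reverse-stranded, and the part of the overlap in the shared pattern was not tested. Muc13 held 24 counts, between 1 and 7 in each library. It was at 0.0394 to 0.179 CPM in Grhl3 KO and 0.0470 to 0.377 CPM in wild type, with wild-type library 1555 the highest, and it shares 184 exon bases with the antisense gene Gm15657. Without a filter on low counts the log2 fold change of Muc20 was −2.11 and that of Muc13 −0.95 (edgeR adjusted p = 0.778 and 0.786).

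**Figure D4:**
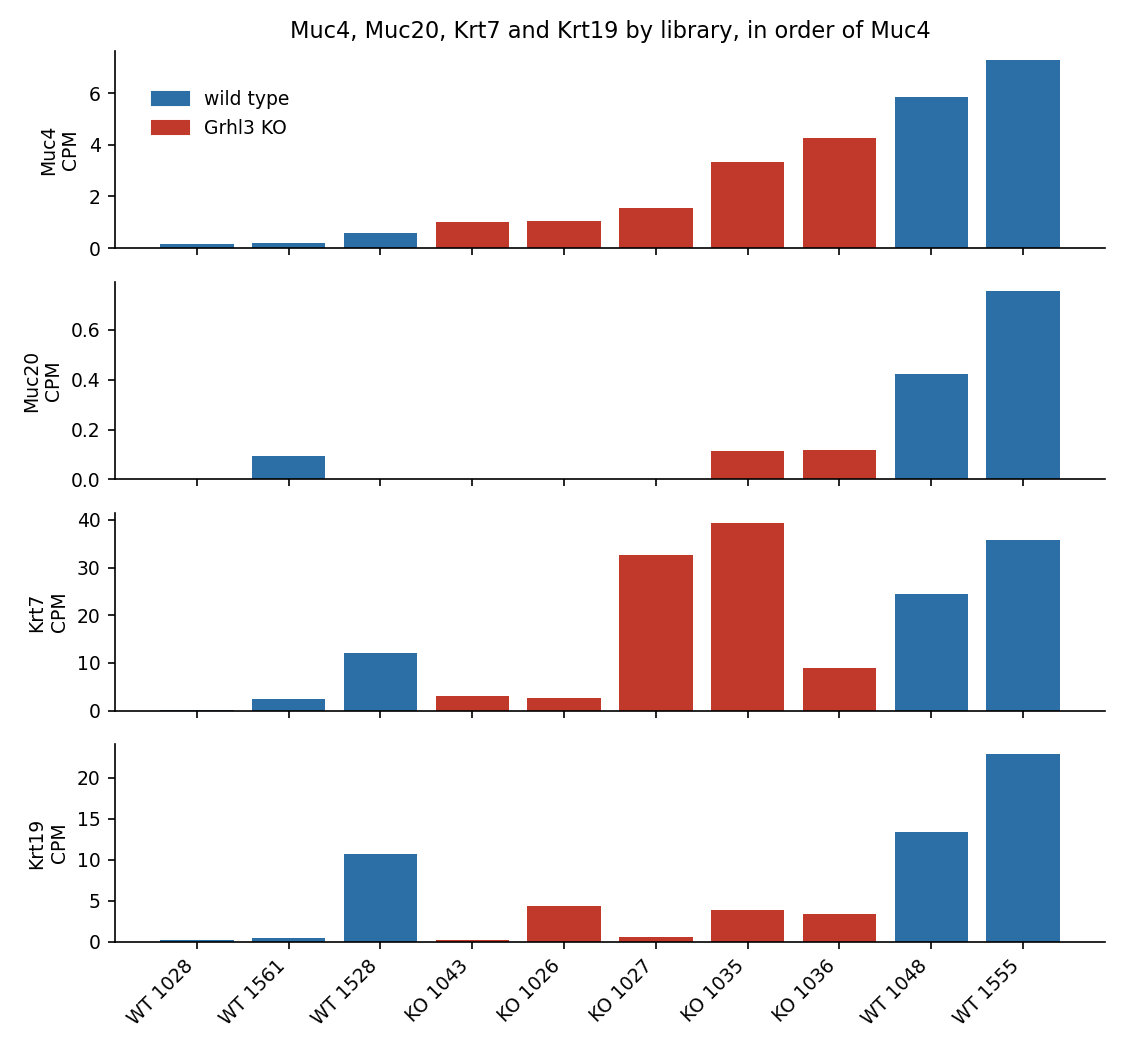
CPM of Muc4, Muc20, Krt7 and Krt19 (bars, 1 per library) in the 10 libraries ordered by Muc4, with wild type (WT) and Grhl3 KO (KO) in different colours. Wild-type libraries 1048 and 1555 are highest for Muc4 and Muc20 and also for Krt19, and Krt7 is high in both and in Grhl3 KO libraries 1027 and 1035.

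Krt19 and Krt7, keratin genes of simple epithelia that are also on the mesothelial list, were set beside Muc4 library by library after their values were seen. Krt19 was at 13.4 and 22.9 CPM in wild-type libraries 1048 and 1555, at 10.7 CPM in 1528 and at 0.188 and 0.423 CPM in 1028 and 1561. Krt7 was at 24.4 and 35.8 CPM in 1048 and 1555 and at 0.141 and 2.40 CPM in 1028 and 1561, but the order of the libraries was not that of Muc4. Grhl3 KO library 1027 reached 32.6 CPM of Krt7 with 1.54 CPM of Muc4, Grhl3 KO library 1036 held 8.98 CPM of Krt7 with 4.25 CPM of Muc4, and wild-type library 1528 held 12.1 CPM of Krt7 with 0.579 CPM of Muc4. Of the other simple keratin genes, Krt8 reached at most 1.58 CPM, and the log2 fold change of Krt18 was −0.36 (edgeR adjusted p = 0.957). The genes most like Muc4 within the groups, named after their values were seen, were Fgd3 (r = 0.94), the anion exchanger gene Slc26a4 (0.94), the vitamin D receptor gene Vdr (0.94), Pstpip2 (0.93) and the adhesion molecule gene Ceacam1 (0.92). Slc26a4 was at 9.80 CPM in wild-type library 1555 and 21.1 CPM in Grhl3 KO library 1036 against 0.942 and 0.800 CPM in wild-type libraries 1028 and 1561. These 5 genes had edgeR adjusted p from 0.813 to 0.953 between the groups.

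Levels of different members can be compared per length as TPM (transcripts per 1e+06 transcripts, from exon length), for the 6 members with a length. In wild type the order was Muc15 at 12.7 ± 4.13 TPM, Muc1 at 1.37 ± 0.508, Msln at 0.952 ± 0.214, Muc4 at 0.629 ± 0.767, Muc20 at 0.164 ± 0.198 and Muc13 at 0.123 ± 0.0966 TPM (SD, n = 5 each). Muc15 stood apart, and the ranges of all later neighbours in that order overlapped. In Grhl3 KO it was Muc15 at 6.15 ± 2.49 TPM, Msln at 3.72 ± 1.12, Muc1 at 1.26 ± 0.498, Muc4 at 0.513 ± 0.341, Muc13 at 0.0696 ± 0.0445 and Muc20 at 0.0320 ± 0.0438 TPM (SD, n = 5 each). Here the ranges of Muc15 and Msln overlapped, as did those of Muc1 and Muc4 and of Muc13 and Muc20, while Msln lay above Muc1 and Muc4 above Muc13 in every library. In library 1036 Msln (5.43 TPM) exceeded Muc15 (3.39 TPM).

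Msln made up 17.1 to 45.7% of the summed TPM of these 6 genes in Grhl3 KO and 3.72 to 7.89% in wild type. Muc15 made up 28.6 to 71.1% and 70.8 to 87.8%. The sum itself was 9.67 to 13.7 TPM in Grhl3 KO and 10.3 to 21.6 TPM in wild type, so the set as a whole was not higher in Grhl3 KO. All of these are low levels: the mean TPM of Msln exceeded that of 22.4% of the 13662 genes tested with a length in Grhl3 KO and 7.29% in wild type, and that of Muc15 30.5 and 46.1%.

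Members were compared for shared variation within the groups, over 10 libraries with the group means removed and 6 pairs of the 4 tested members. No pair passed after adjustment. Msln and Muc4 came closest, with Pearson r = 0.58 (exact permutation p = 0.0419, adjusted 0.251) and Spearman rho = 0.70 (exact permutation p = 0.0445, adjusted 0.267). Without Grhl3 KO libraries 1026 and 1036, which lay farthest out in Msln, r was 0.70. Msln and Muc15 had r = −0.28 (exact permutation p = 0.450, adjusted 0.676), and r was 0.45 without the same 2 libraries.

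Other genes of the mucin pathway were taken from lists of known roles. None of their members passed the threshold, against 0.0801% of all genes tested. An unadjusted edgeR p under 0.05 was seen for 3 of 21 O-glycosylation genes, 4 of 11 cleavage genes and 2 of 14 partner genes. It was seen for 0 of 7 apical scaffold genes and 1 of 6 other mucins, against 7.16% of all genes tested. Mucin-type O-glycosylation builds the sugar chains of mucins. Of its 21 genes tested 10 were higher and 11 lower, with a median log2 fold change of −0.03. C1galt1, which makes the core 1 structure, averaged 43.9 ± 5.83 against 32.9 ± 4.91 CPM (Grhl3 KO against wild type; SD, n = 5 each; log2 fold change 0.42, edgeR adjusted p = 0.466). The initiating transferase genes Galnt3 and Galnt2 had 0.54 and 0.62 (edgeR adjusted p = 0.554 and 0.682), and the most abundant ones, Galnt1 and Galnt6, 0.03 and −0.03.

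Proteases and lipases that cut or release mesothelin and mucins had 5 of 11 tested genes higher and 6 lower, with a median of −0.000497. Furin, a protease known to cut the mesothelin precursor, averaged 205 ± 21.7 against 202 ± 44.8 CPM (Grhl3 KO against wild type; SD, n = 5 each; log2 fold change 0.02, edgeR adjusted p = 0.992). The sheddase gene Adam10 was at −0.00, the matriptase gene St14 at 0.55, Bace2 at −0.54 and Mmp14 at −0.38 (edgeR adjusted p = 0.999, 0.428, 0.626 and 0.673).

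Among partners and signalling genes of mucins 9 of 14 tested genes were higher and 5 lower, with a median of 0.03. The receptor kinase gene Mst1r and Rhbdf2, a rhomboid-like regulator of shedding, had log2 fold changes of 0.35 and 0.44 (edgeR adjusted p = 0.438 and 0.645). Jup and Ctnnb1, the plakoglobin and beta-catenin genes, had 0.16 and 0.08, and the adaptor gene Sos1 0.08. Of the apical scaffold, which ties membrane proteins to actin, 4 of 7 tested genes were higher and 3 lower (median 0.03), with ezrin (Ezr) at 0.20, moesin (Msn) at −0.18, Slc9a3r2 at 0.25 and Espn at −0.69 (edgeR adjusted p from 0.728 to 0.897). Of the other mucins and mucin-like proteins 3 of 6 tested were higher and 3 lower (median 0.01); Podxl was at 0.53, Mcam at 0.12, Cd24a at −0.13 and Cd164 at 0.04 (edgeR adjusted p from 0.692 to 0.968).

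**Figure D5:**
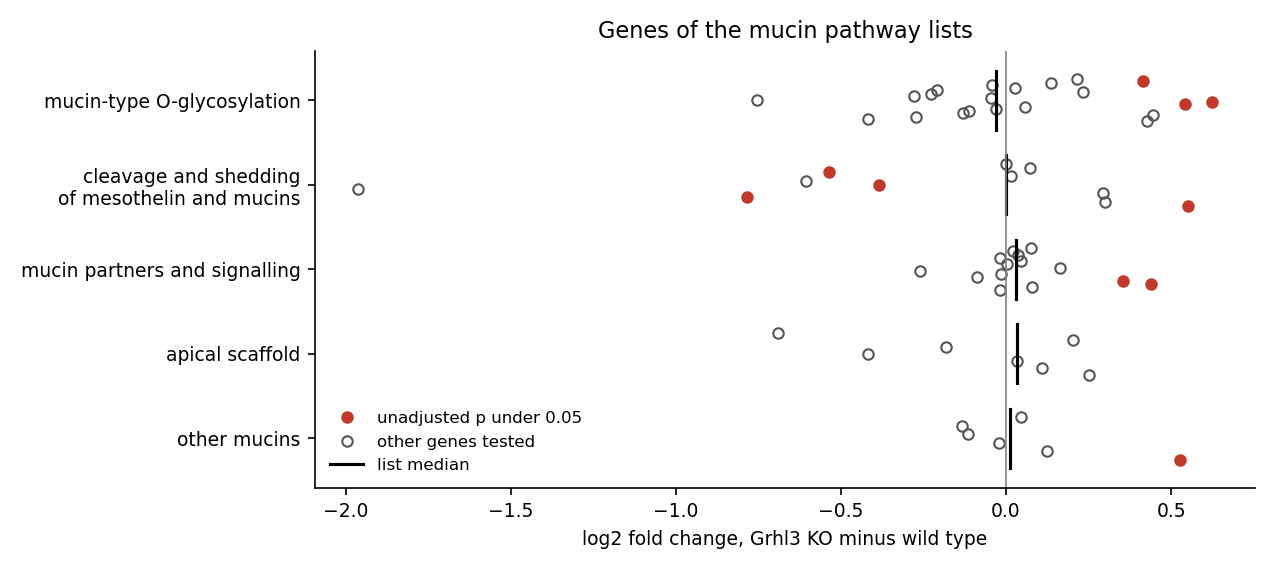
Log2 fold change (Grhl3 KO minus wild type) of each gene tested on 5 lists of the mucin pathway (points, filled where the unadjusted p was under 0.05), with the list median as a bar. The medians lie between −0.03 and 0.03, and no gene passed the adjusted threshold, which 0.0801% of all genes tested passed.

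Markers of other cells were summed per library. Skeletal muscle genes gave 801 to 5829 CPM in Grhl3 KO and 1371 to 3040 CPM in wild type, with 14 of 14 higher and a median log2 fold change of 0.57. In Grhl3 KO libraries 1036, 1043, 1027, 1035 and 1026, in falling order of Msln, these genes summed to 801, 5829, 977, 2323 and 3507 CPM. With the skeletal muscle list as a covariate the Msln log2 fold change was 2.003 (edgeR adjusted p = 0.0392). That fit cannot settle the part of muscle content in the Msln values, since Msln was chosen from this contrast, and that part was not tested. Immune genes gave 7879 to 11436 against 3322 to 23762 CPM, smooth muscle genes 363 to 1070 against 371 to 781 CPM, fibroblast genes 227 to 704 against 298 to 508 CPM, endothelial genes 72.2 to 111 against 54.4 to 152 CPM and adipocyte genes 58.1 to 234 against 62.9 to 331 CPM, all Grhl3 KO against wild type. Most of the immune sum came from S100a8 and S100a9. Their means were 3999 and 5315 CPM in Grhl3 KO and 4815 and 6833 CPM in wild type. Nearly all of the adipocyte sum was Fabp4 and Car3. These averaged 73.1 and 73.2 CPM in Grhl3 KO and 93.4 and 45.8 CPM in wild type. What the sums say of immune or fat cell content was not tested. None of the lists in this paragraph held a gene past the threshold, against 0.0801% of all genes tested.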

How the data were processed

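RNA of 10 mice was sequenced from stranded mRNA libraries, per the labels' protocols. The deposited values are raw counts of protein-coding genes, with no normalization. The submitters' processing notes name featureCounts and GRCm38; aligner and annotation release: not given in the sources used here. Columns were joined to titles by sample number, and 0 columns and 0 unnamed rows were set aside. Nothing says whether mice shared a litter or a preparation, so p-values measure only the spread between these samples.

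All genes were fitted together with edgeR 4.0.16 in R 4.3.3 (filterByExpr with a minimum count of 10 and total of 15, TMM scaling, robust quasi-likelihood F-test), which left 13731 genes. Benjamini-Hochberg adjustment ran over all of them (threshold 0.05). CPM uses TMM-scaled totals, log2 CPM a prior count of 2. Positions, exon lengths and overlaps come from GENCODE M21 (GRCm38), which holds 21919 of the 22740 identifiers. blastn 2.17.0 found no stretch of at least 75 bases and 95% identity shared on the same strand between the longest transcript of any member and another gene. Pairs of members were compared by exact two-sided permutation over 14400 reorderings within the groups. The fit was tested on simulated data.

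The members and gene lists were chosen with earlier results of these data known. Named genes are the members, the 3 of smallest p and the 2 most abundant of each list, and the 5 genes most like Msln. Muc16 was to have such genes too but fell below the filter. Scgb1a1, Cldn18, Krt8, Muc2, Muc5ac, Muc5b and Muc6 fall outside this rule and were named after their values were seen. Alternatives were other scalings, filters and tools (DESeq2 1.42.0, limma 3.58.1 voom), libraries left out and covariates.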

Additional observations from a re-analysis of the deposited data

Results flagged for a closer look

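In 13 groups of 5 libraries with any counts of a member, 2 held a library far from the other 4. Chance flags about 1 group in 20 for continuous values, a rate that does not carry over to counts as low as these. Wild-type library 1528 stood at 0.158 CPM of Muc16, from 3 counts, where the other 4 wild-type libraries were at 0, so that any single count above 0 would have stood apart. Grhl3 KO library 1043 stood at 0.179 CPM of Muc13, also from 3 counts, where the other 4 Grhl3 KO libraries lay between 0.0394 and 0.0640 CPM.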

How the results depend on the processing

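Because Msln was chosen as higher in these same libraries and every alternative reuses their counts, its kept direction is a description only. Msln stayed higher in Grhl3 KO under all 24 alternatives, with log2 fold changes from 1.77 to 2.15 and adjusted p from 3.6e-08 (DESeq2) to 0.475. It lost its call in limma voom (1.95, adjusted p = 0.0961), voom with quality weights (1.92, 0.0761), with the number series as a covariate (2.03, 0.415), among sample numbers 1026 to 1048 (2.04, 0.475) and without wild-type libraries 1528 and 1555 (2.15, 0.208), so that 0 members passed there in place of 1. The last 2 have fewer samples; otherwise the cause was not tested. With 1 library left out the Msln value ran from 1.77 to 2.10, and 0 to 1 members passed as higher. No member passed as lower in any alternative; Muc15 ran from −1.31 to −0.72 (adjusted p from 0.0818 in DESeq2 to 0.895). Muc4 changed sign in limma voom (1.14), voom with quality weights (0.55) and without wild-type libraries 1528 and 1555 (0.15), and ran from −0.66 to 0.42 with 1 library left out; without wild-type library 1048 it was 0.16. Muc1 ran from −0.38 to 0.0624 with 1 library left out, above 0 only without wild-type library 1528. Among pairs, r without the 2 farthest libraries changed sign for Msln and Muc1 (−0.26), Msln and Muc15 (0.45) and Muc1 and Muc15 (0.31), and without removal of group means for Msln and Muc1 (−0.0686) and Muc1 and Muc15 (0.0485); the cause was not tested. The number of genes past the threshold was 11 in edgeR, 61 higher and 69 lower in DESeq2, and 0 higher and 1 lower in limma voom. Msln had 17 to 25 counts per wild-type library, and Muc20 and Muc13 at most 14 in any library, which limits the precision of their values. No paired analysis was possible because the labels share no replicate numbers between the groups.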

Other observations

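Secreted, gel-forming mucins had few counts. Muc6 was at 0 in all 10 libraries. Muc5b held 10 counts in all; 4 Grhl3 KO libraries held 0, Grhl3 KO library 1036 held 0.0394 CPM, and the wild-type libraries ranged over 0.0526 to 0.141 CPM. Muc2 averaged 0.312 against 0.608 CPM (Grhl3 KO against wild type), with wild-type library 1528 the highest at 1.84 CPM, and Muc5ac averaged 0.391 against 0.462 CPM. All of these fell below the filter on low counts and were not tested.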
